A study of Homo sapiens with 12 samples.

Results

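Small secreted chemokines, 10 in number, were followed through a series on resistance of triple negative breast cancer (TNBC) cells to γ-secretase inhibition: the CXC ligands CXCL1, CXCL2, CXCL3, CXCL5, CXCL6, CXCL8 and CXCL10, and the CC ligands CCL2, CCL5 and CCL20. These 10 genes of 29744 entries in the count table were proposed by name with earlier results of the same libraries known, so they count as chosen by their measured expression differences between the 4 groups, although which of these values led to the choice is not recorded. Their levels and fold changes below are therefore a description. No p-value is printed for them, and where a member is said to be called, this is only its label in the fit over all genes, given beside the share of all genes called. All 10 have an entry in the counts, CXCL8 under its older symbol IL8.

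The RNA came from MB157, an established NOTCH-driven TNBC cell line whose own NOTCH1 lacks its extracellular part, and from MB157R, described as its derivative after 25 weeks in 1 µM of the γ-secretase inhibitor (GSI) LY3039478. Both lines carried doxycycline-inducible constructs, and 4 groups of 3 libraries were made. For MB157 these were empty vector (MB157 iEV) and the transcription factor SOX2 (MB157 iSOX2). For MB157R they were empty vector (MB157R iEV) and N1-ICD (MB157R iN1-ICD). The N1-ICD construct was human NOTCH1 without its extracellular domain (DeltaE-NOTCH1), which the paper names N1-ICD. All 12 cultures, the empty-vector controls included, were induced over 72 h with doxycycline, which the labels give as 1 µg/ml. Whether the MB157R cultures were in GSI when RNA was taken is not stated in the sources used here. Each construct was compared in 1 cell line only, and a pool of cells gives 1 RNA sample, so fewer expressing cells and less RNA per cell cannot be told apart.

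Chemokines bind G protein-coupled receptors and draw leukocytes along their gradient. CXCL1, CXCL2, CXCL3, CXCL5, CXCL6 and CXCL8 carry a Glu-Leu-Arg motif before their first cysteines. They act through CXCR2 and, for some of them, CXCR1, attract neutrophils and promote the growth of vessels. CXCL10 acts through CXCR3 on T cells and is classically induced by interferons. CCL2 attracts monocytes through CCR2, CCL5 attracts T cells and monocytes, and CCL20 attracts CCR6-bearing lymphocytes and dendritic cells. In epithelial and tumor cells the neutrophil-attracting members are textbook targets of NF-κB downstream of IL-1 and TNF, and their transcripts are short-lived because RNA-binding proteins of the tristetraprolin and Regnase families destroy them.

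The 6 neutrophil-attracting members lie in a cluster on the long arm of chromosome 4, together with the related genes PF4V1, PF4 and PPBP. In RefSeq on GRCh38.p14 they are CXCL8 at chr4:73740569-73743716, CXCL6 at chr4:73836678-73838760, CXCL1 at chr4:73869393-73871308, CXCL5 at chr4:73995642-73998677, CXCL3 at chr4:74036589-74038689 and CXCL2 at chr4:74097040-74099195. CXCL10 lies farther along the same arm at chr4:76021118-76023497, CCL2 and CCL5 on chromosome 17 (chr17:34255285-34257203 and chr17:35871491-35880360) and CCL20 on chromosome 2 (chr2:227813842-227817556). The stretch of 120 bases ahead of the RefSeq transcription start is shown for the members of the cluster and CCL20, and for CXCL10 the stretch from 197 to 78 bases ahead of it, because these pieces hold κB letters that the members have in common. Each is written 5′ to 3′ on the strand of its gene, and capitals mark bases matched by the kB core GGAATTTCC, on either strand, or by the NF-κB consensus of 10 bases, on either strand.
CXCL8 (chr4:73740449-73740568, plus strand): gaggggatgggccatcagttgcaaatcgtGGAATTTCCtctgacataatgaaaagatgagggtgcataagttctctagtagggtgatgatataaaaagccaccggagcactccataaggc
CXCL6 (chr4:73836558-73836677, plus strand): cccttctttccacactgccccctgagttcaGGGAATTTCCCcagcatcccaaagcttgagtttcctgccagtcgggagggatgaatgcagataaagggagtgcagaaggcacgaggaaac
CXCL5 (chr4:73998678-73998797, minus strand): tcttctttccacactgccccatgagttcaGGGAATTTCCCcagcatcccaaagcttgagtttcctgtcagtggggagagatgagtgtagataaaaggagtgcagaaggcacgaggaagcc
CXCL1 (chr4:73869273-73869392, plus strand): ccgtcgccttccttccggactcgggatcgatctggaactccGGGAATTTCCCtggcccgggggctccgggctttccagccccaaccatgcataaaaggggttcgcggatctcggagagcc
CXCL2 (chr4:74099196-74099315, minus strand): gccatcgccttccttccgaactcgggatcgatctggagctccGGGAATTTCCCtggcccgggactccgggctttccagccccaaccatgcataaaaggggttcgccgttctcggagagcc
CXCL3 (chr4:74038690-74038809, minus strand): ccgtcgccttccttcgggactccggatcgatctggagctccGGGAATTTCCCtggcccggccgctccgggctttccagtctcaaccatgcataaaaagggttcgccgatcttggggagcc
CXCL10 (chr4:76023575-76023694, minus strand): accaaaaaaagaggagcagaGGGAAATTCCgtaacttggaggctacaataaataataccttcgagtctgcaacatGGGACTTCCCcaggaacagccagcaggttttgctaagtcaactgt
CCL20 (chr2:227813722-227813841, plus strand): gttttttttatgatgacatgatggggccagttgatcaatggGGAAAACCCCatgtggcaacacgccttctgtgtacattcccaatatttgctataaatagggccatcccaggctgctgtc

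The kB core GGAATTTCC was found in the 250 bases ahead of the start of CXCL1, CXCL2, CXCL3, CXCL5, CXCL6, CXCL8 and CXCL10, while 145 of 35116 RefSeq promoters of that length (0.413%) hold it. In the 6 clustered genes its first base lay between 77 and 91 bases ahead of the start, and in CXCL10 it lay 176 bases ahead. The core sat inside a match of the longer NF-κB consensus in each of these genes except CXCL8, and CCL20 held a consensus match without the core, against 9.96% of promoters that hold the consensus. The printed pieces of CXCL5 and CXCL6 were 92.4% identical over 119 aligned bases, and those of CXCL1 and CXCL3 90.8% identical over 120 bases, without gaps. The RBPJ core TGGGAA, the letters read by the DNA-binding partner of N1-ICD, occurred in 20.8% of promoters and here in CXCL5, CXCL6 and CCL20. The AP-1 core TGANTCA occurred in 6.57% of promoters and here in CXCL8, and the SOX core CATTGTT, found in 2.87% of promoters, was in no member's window. A match is a run of letters and not evidence of binding. CCL2 and CCL5 are named only.

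Levels are given as CPM, the counts scaled to a common library size, with TMM-scaled library sizes, and they are compared between libraries, not between genes. The 12 libraries held between 32773820 and 49055208 estimated counts, and the floor of 3 counts over a group of 3 libraries was 0.0226 to 0.0260 CPM, which covers counting error only. The induced genes followed the labels: SOX2 measured 7.10 ± 0.544 CPM in MB157 iEV and 308 ± 23.3 CPM in MB157 iSOX2, and NOTCH1 92.4 ± 8.37 CPM in MB157R iEV and 2322 ± 487 CPM in MB157R iN1-ICD (SD, n = 3). Epithelial markers (6 genes) summed to 1793 CPM or more in every library. Leukocyte markers, of which CD3E, MS4A1, FCGR3B, MPO and ELANE had no count in any library, summed to 41.6 to 45.2 CPM in MB157 iEV, 12.5 to 14.9 CPM in MB157 iSOX2, 4.72 to 6.11 CPM in MB157R iEV and 16.4 to 17.7 CPM in MB157R iN1-ICD. Endothelial markers summed to 7.46 to 8.32 CPM in MB157 iEV, 103 to 112 CPM in MB157 iSOX2, 4.24 to 4.70 CPM in MB157R iEV and 44.9 to 49.8 CPM in MB157R iN1-ICD, and fibroblast markers to at most 49.9, 75.6, 89.7 and 169 CPM in the same order. The libraries labelled MB157R also stood apart from those labelled MB157 in genes without any count: 39 genes had none in all 6 MB157 libraries and at least 10 CPM in MB157R iEV, among them SPG11 and B2M on chromosome 15 (B2M, the light chain of MHC class I, measured 699.9 ± 53.3 CPM in MB157R iEV), and 59 genes had none in all 6 MB157R libraries and at least 10 CPM in MB157 iEV. Genes without a count in 1 line lay partly in runs of nearby genes. In the MB157 libraries these included SPG11, PATL2, B2M and TRIM69 on chromosome 15 and PSPC1, ZMYM5 and ZMYM2 on chromosome 13. CD302, LY75, PLA2R1 and ITGB6 on chromosome 2 also had no count there. In the MB157R libraries they were IRX4, IRX2 and IRX1 on chromosome 5 and ZNF835, ZIM2 and PEG3 on chromosome 19. Whether the lines share an origin was not tested. The part of such differences between the lines in the chemokine levels was not tested, and the comparisons with SOX2 and with N1-ICD were each made within 1 line.

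In the libraries labelled MB157R, the 6 clustered neutrophil-attracting genes and CCL20 were present at levels 332 to 7021 times those of MB157 iEV, where each was below 1 CPM. CXCL10 overlapped between the lines, CCL2 lay close, and CCL5 was near 0 in both. In this comparison 45.0% of the 11435 genes tested were called higher and 45.3% lower at an adjusted p under 0.05 with edgeR's quasi-likelihood test, and with the wider set of 16722 genes that had a mean count of at least 5, 42.9% were called higher and 43.8% lower. The call was met by 6 of the 7 members in the first set and by 7 of the 9 in the second, all higher. The genes count as chosen by differences that include this contrast, so nothing is read from these counts.

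CXCL8, the prototype neutrophil attractant, gave 0.863, 0.736 and 0.662 CPM in the 3 MB157 iEV libraries (28, 31 and 27 counts) and 612, 596 and 587 CPM in MB157R iEV. The groups were far from overlapping and the means stood 794-fold apart. The fitted log2 fold change was 9.72 with an SE of 0.06, from the fit over genes with a mean count of at least 5, since the gene is in none of the authors' 3 filtered tables.

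CXCL1 gave 0.216, 0.499 and 0.540 CPM in MB157 iEV and 616, 593 and 610.0 CPM in MB157R iEV, with a fitted log2 fold change of 10.44 (SE 0.09) and a ratio of means of 1451. Its paralog CXCL2 gave 0.216, 0.0712 and 0.270 CPM in MB157 iEV and 63.1, 62.0 and 59.5 CPM in MB157R iEV, a ratio of 332. For CXCL3 the values were 0.216, 0.214 and 0.172 CPM against 79.9, 72.9 and 68.6 CPM, a ratio of 368. All 3 were thus low in each MB157 library and high in each MB157R library, although these genes are close copies of each other and reads can be apportioned between them. Of the 60-base words of its Ensembl canonical transcript, CXCL2 shared 28 with CXCL1 and 38 with CXCL3, at most 3.74% of any of the 3. The counts were not whole numbers in 6, 6 and 1 of 12 libraries for CXCL1, CXCL2 and CXCL3. In all 6 such libraries the counts of the 3 genes summed to a whole number within 0.01. Their sum, which no split of reads among them can change, measured 0.804 ± 0.168 CPM in MB157 iEV and 742 ± 15.8 CPM in MB157R iEV, 923-fold apart.

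CXCL5, a neutrophil attractant of epithelial cells, gave 0.0924, 0.214 and 0.393 CPM in MB157 iEV and 419.9, 404 and 389 CPM in MB157R iEV, with a log2 fold change of 10.69 (SE 0.11). Its counts were not whole numbers in 4 of 12 libraries, although it shared no 60-base word with the other clustered members. CXCL6, the member whose printed promoter piece is closest to that of CXCL5, had 1, 1 and 3 counts in the MB157 iEV libraries and 311, 297 and 292 CPM in MB157R iEV. With 5 counts in the low group the count ratio of CXCL6 was 6913, with a 95% counting interval of 2962 to 21293. Without MB157 iEV replicate 3, the library with most counts of both genes in its group, the log2 fold changes were 11.28 for CXCL5 and 13.30 for CXCL6, against 12.66 (SE 0.10) for CXCL6 with it.

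CCL20, the ligand of CCR6, had 0, 2 and 2 counts in MB157 iEV and 17.3, 17.7 and 17.0 CPM in MB157R iEV. The count ratio was 499 with a 95% counting interval of 195 to 1834, and the groups were far apart. CXCL10, the interferon-induced member, did not share this pattern: it gave 1.63, 1.07 and 0.736 CPM in MB157 iEV and 1.24, 0.563 and 1.85 CPM in MB157R iEV. These ranges overlapped, the fitted log2 fold change was 0.14 (SE 0.38), and its sign depended on which library was left out (−0.30 to 0.47). CCL2 had 4, 5 and 3 counts in MB157 iEV and 15, 7 and 6 counts in MB157R iEV, a count ratio of 2.03 with a 95% counting interval of 1.00 to 4.38. It was called higher only when MB157R iEV replicate 3 was left out (log2 fold change 1.35). CCL5 had 2, 0 and 0 counts against 0, 1 and 3 counts, which allows no statement on a difference.

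SOX2 in MB157 was accompanied by a higher level of CXCL6 and, at a much lower level, of CXCL1, by a lower level of CXCL10, and by levels of CXCL2, CXCL3, CXCL5 and CXCL8 that overlapped the controls. Here 32.5% of the 10904 genes of the authors' filtered table were called higher and 33.9% lower, and in the set of 16396 genes with a mean count of at least 5 the shares were 28.4% and 27.9%. Only CXCL6 is in the first set and was called higher. In the second set 7 members were tested, of which CXCL1 and CXCL6 were called higher, CXCL10 lower and 4 neither; nothing is read from these counts.

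CXCL6 had 1, 1 and 3 counts in MB157 iEV and 279, 261 and 276 counts in MB157 iSOX2, that is 6.84, 5.84 and 6.24 CPM. The count ratio was 145 with a 95% counting interval of 61.9 to 448, and the fitted log2 fold change was 7.09 (SE 0.27), or 7.72 without MB157 iEV replicate 3. This level was still far under that of the gene in MB157R iEV. CXCL1 gave 1.54, 1.19 and 1.42 CPM in MB157 iSOX2, above every MB157 iEV library, with a ratio of 3.31 and a fitted log2 fold change of 1.68 (SE 0.30). CXCL2 gave 0.294, 0.0672 and 0.113 CPM and CXCL3 0.172, 0.336 and 0.203 CPM in MB157 iSOX2, and both overlapped the controls. The sum of CXCL1, CXCL2 and CXCL3 was 1.78 ± 0.213 CPM in MB157 iSOX2, 2.21 times that of the control.

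CXCL8 in MB157 iSOX2 gave 1.03, 0.896 and 0.497 CPM, a range that contains that of the controls, with a log2 fold change of 0.10 (SE 0.31). CXCL5, whose printed promoter piece is closest to that of CXCL6, gave 0.172, 0.112 and 0.0904 CPM and did not share the direction of CXCL6 (log2 fold change −0.94, SE 0.59; the ranges overlapped). CXCL10 gave 0.172, 0.157 and 0.316 CPM, below every control library, with a log2 fold change of −2.38 (SE 0.40) and 28 counts against 128 in the control. CCL2 had 2 counts against 12, CCL5 none against 2 and CCL20 none against 4, too few to be read.

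N1-ICD in MB157R was accompanied by higher levels of every member that could be measured well, to very different extents. CCL5 went from the floor to a clear level, CXCL2, CXCL8 and CXCL10 stood between 3 and 4 times above the control, CXCL1 close to 2 times, and CXCL6, CCL20, CXCL3 and CXCL5 below that. In this comparison 29.8% of 11210 genes were called higher and 29.3% lower, and in the set of 15994 genes with a mean count of at least 5 the shares were 27.6% and 25.3%. The 8 members in the first set were called higher, as were 9 of the 10 in the second, with CCL2 as the exception; again nothing is read from these counts. This comparison and that of the 2 lines share the MB157R iEV libraries, and the comparison of lines shares the MB157 iEV libraries with that of SOX2.

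CCL5 had 0, 1 and 3 counts in MB157R iEV and 984, 1033 and 964 counts in MB157R iN1-ICD, or 21.6, 26.0 and 22.6 CPM. The count ratio was 771 with a 95% counting interval of 301 to 2833. The fitted log2 fold change was 9.47 (SE 0.24) and became 10.63 without MB157R iEV replicate 3. No other member was near the floor in one of these groups and well above it in the other.

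CXCL8 gave 2048, 2062 and 2172 CPM in MB157R iN1-ICD against 612, 596 and 587 CPM in MB157R iEV, a ratio of 3.50 and a log2 fold change of 1.79 (SE 0.04). CXCL2 gave 231, 219 and 243 CPM, a ratio of 3.75 (log2 fold change 1.92, SE 0.05). CXCL1 gave 1246, 1177 and 1289 CPM, a ratio of 2.04 (log2 fold change 1.04, SE 0.04). Each was higher in every N1-ICD library than in every control. The sum of CXCL1, CXCL2 and CXCL3 was 1572 ± 69.3 CPM against 742 ± 15.8 CPM, 2.12-fold.

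CXCL6 gave 475, 516 and 474 CPM in MB157R iN1-ICD, a ratio of 1.63 and a log2 fold change of 0.71 (SE 0.05). CXCL3 gave 105, 102 and 104 CPM, a ratio of 1.41 (log2 fold change 0.50, SE 0.06). CXCL5 gave 438, 448 and 451 CPM, only 1.10 times the control (log2 fold change 0.15, SE 0.04), though its groups did not overlap either. CXCL5 and CXCL6, with near-identical letters in the printed promoter pieces, thus had ratios of 1.10 and 1.63; the difference between these ratios was not tested. CCL20 gave 27.3, 26.7 and 25.8 CPM, a ratio of 1.54 (log2 fold change 0.63, SE 0.06).

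CXCL10 gave 3.40, 4.25 and 4.22 CPM with N1-ICD, above its 1.24, 0.563 and 1.85 CPM in MB157R iEV, with a log2 fold change of 1.68 (SE 0.29). Its controls spread widely, with a coefficient of variation of 52.9% against 12.3% with N1-ICD. CCL2 had 21, 14 and 18 counts against 15, 7 and 6. Its libraries did not overlap once scaled (0.352 to 0.460 CPM against 0.125 to 0.344 CPM), and it was called only when MB157R iEV replicate 1 was left out (log2 fold change 1.46).

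Ordered by level, the 4 groups put MB157R iN1-ICD highest for each member, and MB157R iEV next, with CXCL10 and CCL5 as the members whose MB157R iEV libraries overlapped those of MB157 iEV. For CXCL2, CXCL3, CXCL5, CXCL8, CCL5 and CCL20 the MB157 groups overlapped each other. Across the 12 libraries the log2(CPM + 1) of CXCL1, CXCL2, CXCL3, CXCL5, CXCL6, CXCL8 and CCL20 correlated between 0.954 (CXCL2 and CXCL6) and 0.999 (CXCL3 and CCL20), a description that mostly holds the separation of the 2 lines, which all points share. Among the 10590 genes that averaged 10 CPM or more, those most alike to CXCL8 were AEBP1, THBD and CSF2, and to CCL20 CSF2, HS3ST1 and SHANK3 (r of 0.999 or more each). CXCL3 was most like PKN3, PTPRE and IL1B, CXCL6 most like SPRY4, NEDD4L and FSTL1, and CXCL5 most like ZMYM2, PELI2 and FAR2. ZMYM2 is among the genes above that had no count in the MB157 libraries. CXCL1 was most like CLSPN, F2R and SLC8B1, and CXCL2 most like TMEM51, DUSP14 and THBD. CSF2, the granulocyte-macrophage growth factor, had no count in the MB157 groups and measured 149 CPM in MB157R iEV and 335 CPM in MB157R iN1-ICD. SPRY4, a feedback inhibitor of receptor tyrosine kinase signaling, measured 0.424 CPM in MB157 iEV and 2.81 CPM with SOX2, and 21.9 CPM in MB157R iEV and 28.9 CPM with N1-ICD.

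The chromosome around the cluster was described next, over the 33 other protein-coding genes between 500 kb before CXCL8 and 500 kb beyond CXCL10. Of the 21 tested between the lines 6 were higher, 12 lower and 3 did not pass. Among all genes tested, 45.0% were higher and 45.3% lower between the lines. The shares were 32.5% and 33.9% with SOX2, and 29.8% and 29.3% with N1-ICD. RASSF6, 169 kb before CXCL8, rose from 1.86 ± 0.267 to 55.5 ± 4.19 CPM (log2 fold change 4.90, SE 0.10, adjusted p = 3.3e-14). Beyond CXCL2, the EGFR ligands AREG and EREG rose as well. AREG measured 0.356 ± 0.0997 CPM in MB157 iEV and 105 ± 3.84 CPM in MB157R iEV (adjusted p = 3.0e-16), and EREG had no count in MB157 iEV and 269 ± 19.9 CPM in MB157R iEV, at least 10374-fold higher when the empty group is set to 3 counts in all. MTHFD2L, named after its values were seen because it lies between CXCL2 and these genes, measured 2.36 ± 0.301 and 2.91 ± 0.223 CPM and did not pass (adjusted p = 0.083). The platelet chemokine PPBP, next to CXCL5, had no count in MB157 iEV and 0.621 ± 0.122 CPM in MB157R iEV, at least 23.8-fold higher. Next to CXCL10, CXCL11 fell from 8.68 ± 0.111 to 0.872 ± 0.378 CPM (log2 fold change −3.28, SE 0.21, adjusted p = 4.8e-09) while CXCL10 overlapped. CXCL10 and CXCL11 lie within the span of ART3, which measured 46.9 ± 2.77 CPM in MB157 iEV, 12.6 ± 1.29 CPM in MB157 iSOX2 and 1 count in MB157R iEV; the authors counted with a strand setting.

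With N1-ICD, 7 of 18 tested neighbours were higher, 3 lower and 8 did not pass. The 3 lower ones were EPGN, EREG and AREG, which encode EGFR ligands and lie beyond CXCL2. BTC, an EGFR ligand gene farther along, measured 2.20 ± 0.439 and 2.43 ± 0.313 CPM (adjusted p = 0.50). EREG fell from 269 ± 19.9 to 126 ± 3.10 CPM (log2 fold change −1.08, SE 0.05, adjusted p = 2.4e-08) and AREG from 105 ± 3.84 to 57.6 ± 0.974 CPM (adjusted p = 3.9e-08). RASSF6 measured 55.5 ± 4.19 and 55.3 ± 1.27 CPM (adjusted p = 0.99). With SOX2, 7 of 16 were higher, 5 lower and 4 did not pass; the EGFR ligand BTC rose from 1.15 ± 0.131 to 13.1 ± 0.652 CPM (log2 fold change 3.49, SE 0.12, adjusted p = 1.8e-13), and CXCL11 fell from 8.68 to 4.12 ± 0.241 CPM (log2 fold change −1.07, SE 0.10, adjusted p = 7.7e-08).

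Of 37 other chemokine ligands 35 have an entry, and few were expressed. The counts of this and the following lists stand beside the shares of all genes called, given above for each comparison. Between the lines 6 were tested, of which 1 was higher, 4 lower and 1 did not pass, with a median log2 fold change of −3.63 against −0.0043 over all genes tested. CX3CL1, the membrane-bound fractalkine, fell from 41.6 ± 2.07 to 0.0449 ± 0.0224 CPM (adjusted p = 2.7e-15). CCL28, an epithelial attractant of mucosal lymphocytes, fell from 2.30 ± 0.781 to 0.0551 ± 0.0486 CPM (adjusted p = 3.7e-07). CCL13, an attractant of monocytes and eosinophils, had no count in MB157 iEV and 3.20 ± 0.0490 CPM in MB157R iEV, at least 123-fold higher. With SOX2, 1 of 5 was higher, 3 lower and 1 did not pass, and CX3CL1 rose to 112 ± 3.65 CPM (log2 fold change 1.43, SE 0.04, adjusted p = 2.4e-14). With N1-ICD, 2 of 3 were higher: CCL28 returned to 2.64 ± 0.431 CPM (adjusted p = 1.1e-06), and CXCL16, the ligand of CXCR6, rose from 55.7 ± 0.711 to 92.2 ± 0.436 CPM (adjusted p = 5.7e-08). Among genes with a mean count of at least 5, 3 of 10 other ligands were higher and 5 lower between the lines. In that wider set 3 of 8 were higher and 4 lower with SOX2, and 8 of 11 higher and none lower with N1-ICD.

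Several receptors of the members had few or no counts in these cells. CXCR3 had no count in any library, CXCR1 had 1 count in all and CCR2 1, and CCR6 had 7 to 23 counts per group. CXCR2, the main receptor of the neutrophil-attracting members, had no count in the MB157 groups, 2 counts in MB157R iEV and 115 counts in MB157R iN1-ICD (27 to 53 per library, 0.887 ± 0.248 CPM). CCR1, which also binds CCL5, had 6, 19 and 8 counts in MB157 iEV, MB157 iSOX2 and MB157R iEV, and 627 counts in MB157R iN1-ICD, where it rose to 4.86 ± 1.12 CPM (adjusted p = 2.6e-07 among genes with a mean count of at least 5). These receptors were named for their ligands and not by size. Of the 23 receptors, 2 passed the authors' filter in each comparison. Among genes with a mean count of at least 5, 2 of 6 were higher and 2 lower between the lines, 2 of 3 higher with SOX2, and 5 of 8 higher and 1 lower with N1-ICD. ACKR3, a scavenging receptor of CXCL12 and CXCL11, rose from 0.103 ± 0.0592 to 95.5 ± 0.735 CPM between the lines (adjusted p = 2.9e-16) and fell to 58.7 ± 4.75 CPM with N1-ICD (adjusted p = 1.9e-06). ACKR2, a scavenger of CC chemokines, fell from 7.23 ± 1.18 to 0.0806 ± 0.0616 CPM between the lines (adjusted p = 2.0e-10) and rose to 5.05 ± 0.141 CPM with N1-ICD (adjusted p = 9.5e-08 in the wider set). CXCR4, the receptor of CXCL12, rose from 1.51 ± 0.279 to 9.46 ± 0.371 CPM with SOX2 (adjusted p = 2.9e-11).

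Genes upstream of the neutrophil-attracting members were read from lists of NF-κB components, of cytokines with their receptors, and of mRNA decay regulators. Of 17 NF-κB subunits and inhibitors 12 were higher, 3 lower and 2 did not pass between the lines (median log2 fold change 0.93). The largest rises were in the feedback inhibitor TNFAIP3, from 7.11 ± 0.410 to 360.2 ± 3.80 CPM (adjusted p = 4.5e-17), and in NFKBIZ, a nuclear co-activator of a subset of NF-κB targets, from 4.81 ± 0.467 to 180.0 ± 7.87 CPM (adjusted p = 4.3e-16), while the inhibitor NFKBIB and the kinase IKBKB fell (log2 fold changes −0.83 and −0.81). With SOX2 3 of 17 were higher, 6 lower and 8 did not pass (median −0.06). NFKBIZ rose to 10.9 ± 0.818 CPM (log2 fold change 1.19, SE 0.10, adjusted p = 2.2e-08) and TNIP1 by 0.23 on the log2 scale. IKBKE and NFKB2 fell (log2 fold changes −0.61 and −0.47, adjusted p = 7.1e-07 and 1.3e-07). With N1-ICD 7 were higher, 2 lower and 8 did not pass (median 0.11). The subunits NFKB2 and RELB of the alternative pathway rose by 0.51 and 0.46 on the log2 scale (adjusted p = 4.7e-06 and 5.7e-05). The 2 lower ones were NFKB1 and IKBKE (log2 fold changes −0.16 and −0.39, adjusted p = 0.017 and 6.2e-04).

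Of the 20 cytokines and receptors upstream of chemokine genes 15 were tested between the lines, 12 higher and 3 lower (median 3.37). IL1A had no count in MB157 iEV and 501 ± 19.4 CPM in MB157R iEV, at least 19301-fold higher, and IL1B measured 0.0158 ± 0.0274 CPM and 542 ± 39.9 CPM. The receptors IL17RA and TNFRSF1B fell (log2 fold changes −1.46 and −1.26). With SOX2 3 of 7 were higher, 3 lower and 1 did not pass. With N1-ICD 12 of 19 were higher, 1 lower and 6 did not pass (median 0.44): IL36G, an epithelial cytokine of the IL-1 family, rose from 18.2 ± 1.44 to 192 ± 13.6 CPM (adjusted p = 4.5e-11). Its antagonist IL36RN rose from 0.304 ± 0.101 to 14.4 ± 1.08 CPM (adjusted p = 1.0e-09), and the lipopolysaccharide receptor TLR4 fell from 67.1 ± 2.88 to 40.0 ± 1.57 CPM (adjusted p = 4.9e-07).

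Among 9 mRNA decay regulators 5 were higher, 3 lower and 1 did not pass between the lines (median 0.17). ZC3H12A, the RNase Regnase-1 that degrades inflammatory transcripts, rose from 10.2 ± 0.322 to 319.9 ± 12.5 CPM (adjusted p = 9.2e-17). With SOX2 3 were higher, 5 lower and 1 did not pass (median −0.16), ZFP36L1 falling from 189 ± 7.79 to 114 ± 6.06 CPM and ZFP36L2 rising from 49.5 ± 2.49 to 98.4 ± 3.11 CPM (adjusted p = 1.1e-10 and 2.5e-12). With N1-ICD 3 were higher, 5 lower and 1 did not pass (median −0.15), and the named differences stayed within 1 log2 unit: HNRNPD fell from 408 ± 7.42 to 321 ± 9.92 CPM (adjusted p = 2.4e-05).

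For CXCL10 and CCL5 the list of 20 interferon-side regulators was read. Between the lines 14 of 15 were higher and 1 lower (median 0.85), led by IRF7, from 1.08 ± 0.237 to 17.4 ± 1.07 CPM (adjusted p = 4.5e-12), and IRF1, from 6.82 ± 0.639 to 53.6 ± 1.59 CPM (adjusted p = 1.2e-13), with the adaptor MAVS as the lower one (log2 fold change −1.11). CXCL10 overlapped in that comparison, and CCL5 was near 0. With SOX2 6 of 14 were higher, 5 lower and 3 did not pass (median 0.11). IRF1 fell from 6.82 ± 0.639 to 4.13 ± 0.218 CPM (adjusted p = 3.2e-05), and IFNAR2 fell as well (log2 fold change −0.33). IRF9 and STAT2 rose by 0.73 and 0.67 on the log2 scale (adjusted p = 1.5e-05 and 4.5e-09). With N1-ICD 11 of 15 were higher, 3 lower and 1 did not pass (median 0.36): IRF9, the DNA-binding part of an interferon-activated complex, rose from 5.87 ± 0.121 to 13.4 ± 2.57 CPM (adjusted p = 1.6e-05) and IFIH1, a sensor of double-stranded RNA, from 18.9 ± 1.42 to 40.3 ± 3.20 CPM (adjusted p = 3.5e-07), while the interferon-γ receptor chain IFNGR2 fell (log2 fold change −0.51).

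The 9 genes of chemokine processing and binding include sheddases, a peptidase and heparan sulfate carriers. Between the lines 4 of 4 tested were higher (median 0.99), with the sheddase ADAM10, which cuts CX3CL1 and CXCL16 from the membrane, at 87.2 ± 0.0708 CPM in MB157 iEV and 299.9 ± 5.42 CPM in MB157R iEV (adjusted p = 1.9e-14). With SOX2 1 of 4 was higher, 2 lower and 1 did not pass, syndecan SDC1 falling from 303 ± 5.34 to 135 ± 6.97 CPM (adjusted p = 4.7e-14). With N1-ICD 1 of 6 was higher, 4 lower and 1 did not pass: the peptidase DPP4, which trims chemokines such as CXCL10, rose from 4.92 ± 0.249 to 6.44 ± 0.270 CPM (adjusted p = 0.0062), and SDC1 fell (log2 fold change −0.44).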

How the data were processed

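RNA-seq of 12 libraries (4 groups of 3) was used, made from 800 ng of polyA RNA with a stranded ligation kit. Per the labels, the authors ran STAR and Salmon on hg38 with a reverse-strand setting (stated in the methods) and deposited estimated counts per gene, not normalized, for 29744 entries. They also deposited log2 CPM tables, 1 for each comparison (edgeR 3.42.4, limma 3.56.2). These were filtered on mean TPM and count, and uncharacterized, predicted and pseudogenes were removed too. Why CXCL8, at 598 CPM in MB157R iEV, is in none of them is not stated. Recomputed from the counts their values differed by at most 5e-14, and here the tables set only which genes were tested.

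After rounding of the counts, the quasi-likelihood test of edgeR 4.0.16 (R 4.3.3) was run on the 6 libraries of each comparison with TMM factors. Two-sided p-values were adjusted over all genes tested by Benjamini-Hochberg, and a call needed a value under 0.05. Since CXCL8 is in no filtered table, and most members are missing from that of SOX2, such members take their values from the same fit over genes with a mean count of at least 5. Levels are CPM with TMM factors from 12091 genes (0.978 to 1.03). The labels do not say how replicates were grown, so p-values reflect only how far these libraries scatter, which may be technical; no library repeated another (chi-square per gene 3.84 to 19.2).

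The members and gene lists were chosen with earlier results of these data known. Members are described without a p-value. Of each list, up to 2 called genes in each direction were named by size of the fold change. They had to average 1 CPM or more over the 6 libraries. Neighbours on chromosome 4 were named with their values known, and not every called one was named. The genes most alike are the 3 highest correlations for each member averaging 10 CPM or more. PPBP, MTHFD2L, receptors of the members, ACKR2 with N1-ICD, and SPG11, B2M and the other genes in runs were named after their values were seen. Alternatives were RLE factors, library totals alone, other filters, limma-voom (limma 3.58.1), DESeq2 1.42.0, a fit over all 12 libraries, a replicate block and leaving out each library. The test was checked on simulated data.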

Additional observations from a re-analysis of the deposited data

How the results depend on the processing

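The number of genes called stayed within 1.5 times its value under every alternative run: 10194 to 15401 between the lines (10318 in the fit reported), 6855 to 9375 with SOX2 (7237) and 6374 to 8670 with N1-ICD (6621), the upper ends without a filter. Leaving out single libraries gave 10115 to 10246, 6670 to 6920 and 5810 to 6327. The 26 chemokine fold changes had 354 values under the alternatives, of which 352 were on the same side of the call, none lost or reversed it, and 2 became called, both of CCL2. The 6 sign changes were all of uncalled values. The sum over CXCL1, CXCL2 and CXCL3 gave log2 ratios of 9.85, 1.15 and 1.08 in the 3 comparisons. Among the counts over the lists and the ratios of mean CPM, 559 values stayed within their limits and 38 moved, of which 24 under a wider gene filter, which tests more genes, and 7 where CXCL1, CXCL2 or CXCL3 was replaced by that sum. Replicates with the same number did not deviate together (r between −0.23 and 0.13 over 14058 genes), so the numbers do not pair the samples; with a replicate block 10247, 7019 and 6422 genes were called and no chemokine call changed. Depth limits CCL2 in all groups, and CCL5 and CCL20 wherever they had under 5 counts.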
